A study of Mus musculus with 26 samples.

Results

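The Meis, Pbx and Pknox genes of the mouse encode homeodomain proteins of the TALE class, whose homeodomain carries a longer loop than usual, and bind DNA together with Hox proteins. The genes described here were chosen by symbol: a probe set belongs to them where the platform annotation gives Meis1, Meis2, Meis3, Pbx2, Pbx3, Pbx4, Pknox1 or Pknox2 as its single gene. That gave 145 probe sets of 631748 in the series, for 8 genes of the 18329 with at least 4 probe sets. In assembly GRCm38.p6 of RefSeq the genes lie at chr11:18880428-19019651 (Meis1), chr2:115861264-116067537 (Meis2), chr7:16174012-16186510 (Meis3), chr17:34592259-34597400 (Pbx2), chr2:34171457-34372045 (Pbx3), chr8:69832476-69872292 (Pbx4), chr17:31564722-31607693 (Pknox1) and chr9:36890979-37147342 (Pknox2). The family and the ways of grouping the arrays were chosen with earlier results of these data known, so the levels across runs of arrays are given as a description with no test.

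Pbx proteins are the classical partners of Hox proteins on DNA, and Meis and Pknox proteins bind Pbx and are needed for it to stay in the nucleus. Meis1 is known as a gene of blood stem cells and of the embryonic vessels, and together with Hoxa9 it drives myeloid leukaemia in mice. Meis2 is known from limb, heart outflow and neural crest development, and in embryonic cells Meis genes respond to retinoic acid.

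RNA of 26 samples, named here by their titles ES1 to ES26, was measured on an exon array that carries several probe sets per gene. The labels give 14 samples as strain 129S2/SvPas (ES1 to ES14) and 12 as C57BL/6 (ES15 to ES26), describe all of them as cells of embryoid bodies (aggregates in which embryonic stem cells differentiate), and name neither a genotype, a treatment, a time nor an age for either strain. The sample source is abbreviated as ES EB, and the labels do not tell which samples, if any, were undifferentiated stem cells. Nothing in the labels says that the samples came from separate cultures, so the p-values cover the spread among these arrays only. Within each label that spread includes differences between the runs of arrays described below, and the rest of it may be technical. All titles up to ES14 carry one strain and all later ones the other, so strain and an unrecorded batch cannot be told apart.

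The arrays did not follow their strain label alone. ES13 and ES14 carry the 129S2/SvPas label but stood apart from ES1 to ES12, so the arrays are described in 5 runs of titles: ES1 to ES12, ES13 to ES14, ES15 to ES20, ES21 to ES24 and ES25 to ES26. Checked against marker lists, given as the mean log2 value of a list, 10 of the 10 measured neutrophil precursor genes were higher under the 129S2/SvPas label, with a score of 11.34 to 12.46 in ES1 to ES12 against 5.70 to 7.04 elsewhere. All 9 naive pluripotency genes were lower under that label, and their score was 5.17 to 5.73 in ES1 to ES12, 11.06 to 11.48 in ES21 to ES24 and 6.95 to 8.71 in the other runs. ES1 to ES12 thus held neutrophil precursor RNA at high level under the label of embryoid body cells. The part of these cell type differences in the results that follow was not tested, and in bulk RNA fewer cells of a type and less RNA per cell cannot be told apart.

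The promoters of 3 paralogs are shown because Meis1, Meis2 and Meis3 were low together in ES1 to ES12. RefSeq sequences of assembly GRCm38.p6, running from 250 bases before to 50 bases after a start site that the table holds for the gene, were found for 5 of the 8 genes (Meis1, Meis2, Meis3, Pbx2 and Pbx4). That site is the outermost start of the gene only in Pbx2. It lies 682 bases inside the gene's span in Meis1, 2918 in Meis2, 1383 in Meis3 and 148 in Pbx4, so the windows of these 4 genes are those of an inner start. Each is printed 5′ to 3′ on the gene's own strand, and capitals mark CCAAT boxes on either strand (ATTGG on the reverse strand). They lie at chr11:19018920-19019219 on the minus strand for Meis1, chr2:116064570-116064869 on the minus strand for Meis2 and chr7:16175145-16175444 on the plus strand for Meis3.
Meis1: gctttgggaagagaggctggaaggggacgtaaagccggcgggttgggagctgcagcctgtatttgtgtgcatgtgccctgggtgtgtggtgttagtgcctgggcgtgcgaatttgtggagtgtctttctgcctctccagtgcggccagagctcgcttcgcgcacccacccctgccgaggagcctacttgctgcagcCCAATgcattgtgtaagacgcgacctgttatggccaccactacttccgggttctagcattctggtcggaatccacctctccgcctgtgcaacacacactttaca
Meis2: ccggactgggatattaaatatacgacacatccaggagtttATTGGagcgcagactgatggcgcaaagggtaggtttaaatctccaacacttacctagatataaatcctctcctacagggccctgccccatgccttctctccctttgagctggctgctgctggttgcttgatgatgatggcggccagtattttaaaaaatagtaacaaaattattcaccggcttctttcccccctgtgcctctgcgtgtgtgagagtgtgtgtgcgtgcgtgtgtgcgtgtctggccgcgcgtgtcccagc
Meis3: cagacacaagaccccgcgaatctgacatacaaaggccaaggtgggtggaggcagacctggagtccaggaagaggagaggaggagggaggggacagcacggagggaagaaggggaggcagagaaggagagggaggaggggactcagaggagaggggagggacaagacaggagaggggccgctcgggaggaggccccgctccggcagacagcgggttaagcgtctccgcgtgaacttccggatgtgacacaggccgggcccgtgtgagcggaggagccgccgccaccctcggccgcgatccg

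Each of 4 motifs was searched on both strands: TGACAG, the core site of Meis and Pknox proteins, TGATTNAT, a joint site of Pbx and Hox proteins, the GC box GGGCGG and the CCAAT box CCAAT. None of the 5 promoters held TGACAG, which 19.2% of 32851 promoters of the same length hold, or TGATTNAT, which 3.22% hold. A CCAAT box, held by 37.4% of promoters, was found once in Meis1 at position -54 from that site, once in Meis2 at -210 and in 2 places in Pbx4, at -197 and -30. The GC box, held by 35.7% of promoters, was found only in Pbx2 among these 5, at -142 and -83. None of the 4 motifs was thus found in all 3 Meis promoters, as the CCAAT box was in those of Meis1 and Meis2 but not of Meis3. The GC content of the Meis promoters was 58.3% in Meis1, 51.0% in Meis2 and 66.7% in Meis3. A match is a description of these letters and says nothing of whether a factor binds there.

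The gene value used throughout is the median log2 RMA value over the brighter 50% of a gene's probe sets (by mean level on all 26 arrays), so that 1 unit stands for a factor of 2 on the array's scale. Between strain labels 5 of the 8 genes differed. Meis1, Meis2, Meis3 and Pbx3 were lower and Pknox2 was higher under the 129S2/SvPas label, while Pbx2, Pbx4 and Pknox1 did not pass the threshold. Over all genes tested, 21.2% were called higher and 22.1% lower under the same label by limma with an adjusted p under 0.05, so calls were common in this contrast. The median difference was -0.69 over the 8 genes and 0.00 over all genes.

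Meis1, the Hox partner of blood stem cells and myeloid leukaemia, had 4.72 to 6.95 log2 units in ES1 to ES12 with a median of 6.03. ES13 had 5.79 and ES14 7.41. The 6 arrays ES15 to ES20 had 8.43, 9.46, 10.19, 10.28, 10.34 and 10.24, the 4 arrays ES21 to ES24 had 8.29, 8.68, 7.53 and 6.80, and ES25 and ES26 had 9.03 and 9.15. The runs therefore stood, from low to high by median, as ES1 to ES12, ES13 to ES14, ES21 to ES24, ES25 to ES26 and ES15 to ES20, and among neighbours in that order only ES21 to ES24 and ES25 to ES26 did not overlap. Meis1 averaged 6.10 ± 0.82 in the 129S2/SvPas arrays and 9.03 ± 1.15 in the C57BL/6 arrays (SD, n = 14 and 12). It was lower under the 129S2/SvPas label, with a difference of -2.94 ± 0.37 (SE) and an adjusted p of 6.7e-07 in limma.

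Meis2, known from limb and heart development, separated ES1 to ES12 from all other arrays. It lay between 4.56 and 5.47 there, with a median of 5.07. ES13 and ES14 had 7.04 and 7.88, ES15 to ES20 had 8.61, 9.40, 9.76, 10.03, 9.98 and 9.74, ES21 to ES24 had 8.88, 9.34, 7.98 and 7.38, and ES25 and ES26 had 9.87 and 9.98. The lowest array outside ES1 to ES12 was thus ES13, and the strain-labelled groups overlapped only through ES14. By median the order was ES1 to ES12, ES13 to ES14, ES21 to ES24, ES15 to ES20 and ES25 to ES26, and each neighbouring pair after the first overlapped. Meis2 averaged 5.39 ± 0.93 in the 129S2/SvPas arrays and 9.25 ± 0.87 in the C57BL/6 arrays (SD, n = 14 and 12). Its difference of -3.85 ± 0.34 (SE, adjusted p = 1.05e-08 in limma) had the largest size among the 8 genes.

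Meis3, the least studied of the Meis paralogs and known from hindbrain development in frogs and fish, also lay lower in ES1 to ES12, at 5.30 to 6.47. ES13 and ES14 had 7.43 and 7.51, ES15 to ES20 had 7.81, 7.94, 7.69, 7.64, 7.62 and 7.62, ES21 to ES24 had 6.75, 6.92, 6.84 and 6.52, and ES25 and ES26 had 6.94 and 7.40. Unlike those of Meis1 and Meis2, the values of Meis3 in ES13 and ES14 sat above all 4 arrays of ES21 to ES24. By median the order was ES1 to ES12, ES21 to ES24, ES25 to ES26, ES13 to ES14 and ES15 to ES20, with no overlap between any pair of neighbours. The difference between strain labels was -1.20 ± 0.23 (SE, adjusted p = 0.000129 in limma), on means of 6.10 ± 0.70 in the 129S2/SvPas arrays and 7.31 ± 0.48 in the C57BL/6 arrays (SD, n = 14 and 12).

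**Figure D1:**
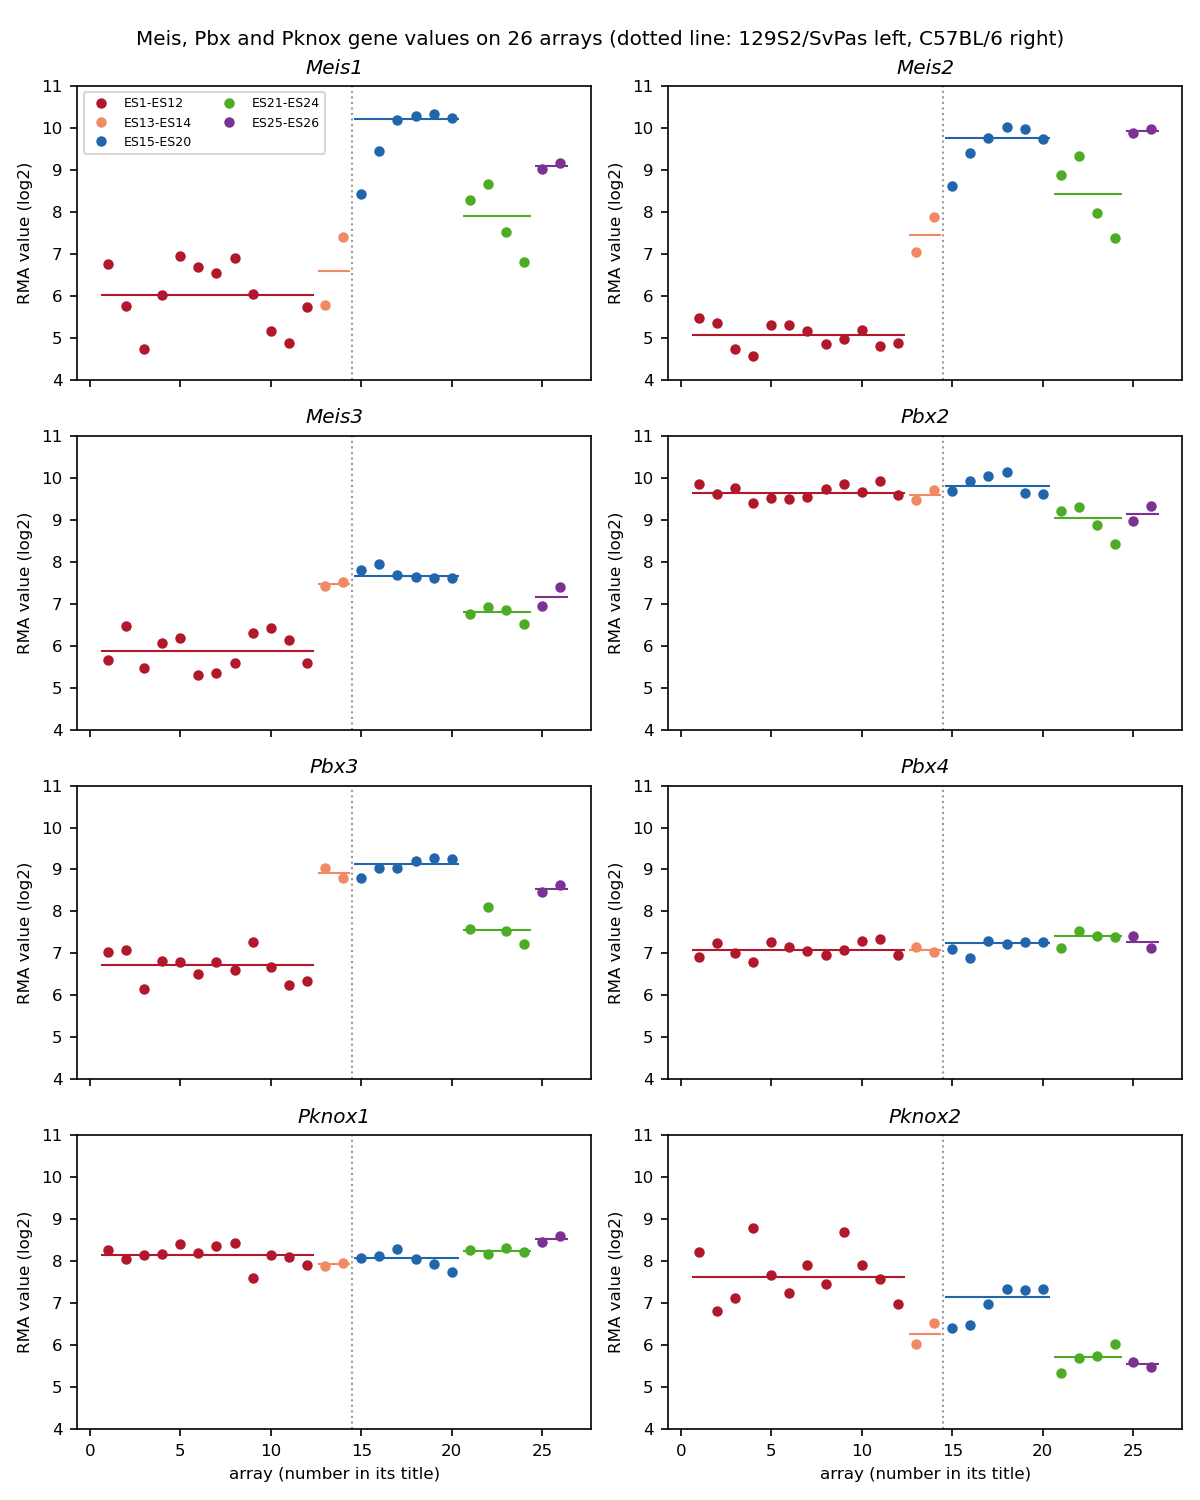
Gene values (log2 RMA, vertical axis) of the 8 genes on each array, ordered by title number (horizontal axis); points are arrays coloured by title run, horizontal bars are run medians, and the dotted line separates the 129S2/SvPas labels on the left from the C57BL/6 labels on the right. Meis1 and Meis2 are at least 8.43 in all of ES15 to ES20, Pknox2 is highest in ES1 to ES12, and Pbx4 and Pknox1 cover the narrowest ranges of the 8 genes.

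Of the Pbx genes, Pbx3, which in mice is needed for normal breathing control, was the one with a wide range. It lay at 6.14 to 7.28 in ES1 to ES12, with a median of 6.73. ES13 and ES14 had 9.04 and 8.79, ES15 to ES20 had 8.80, 9.05, 9.03, 9.19, 9.27 and 9.25, ES21 to ES24 had 7.57, 8.11, 7.54 and 7.23, and ES25 and ES26 had 8.46 and 8.63. ES24 alone reached down into the range of ES1 to ES12. By median the order was ES1 to ES12, ES21 to ES24, ES25 to ES26, ES13 to ES14 and ES15 to ES20, where the first pair overlapped through ES24 and the last pair overlapped. Pbx3 averaged 7.01 ± 0.87 in the 129S2/SvPas arrays and 8.51 ± 0.73 in the C57BL/6 arrays (SD, n = 14 and 12), a difference of -1.50 ± 0.30 (SE, adjusted p = 0.000245 in limma).

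Pbx2, a widely expressed paralog whose loss alone leaves mice viable, lay at 9.40 to 9.92 in ES1 to ES12, 9.47 and 9.70 in ES13 and ES14, and 9.61 to 10.15 in ES15 to ES20. It was 8.41 to 9.30 in ES21 to ES24 and 8.96 and 9.33 in ES25 and ES26. Those last 6 arrays were all below the other 20, as was noticed after the values were seen. The share of all genes with that split was not counted. In the gene value, probe sets 5404488 and 5037431 did not show it. Their medians were 9.46 and 9.91 in ES21 to ES24 and 9.42 and 9.95 in ES25 to ES26, against 9.28 and 9.86 in ES1 to ES12. The other probe sets of the gene value had lower medians in both runs than in ES1 to ES12. The strain contrast did not show the lower level of ES21 to ES26, with a difference of 0.23 ± 0.14 (SE, adjusted p = 0.212 in limma). With each array centred on its median the difference was 0.36 and passed, with an adjusted p of 0.0234.

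Pbx4, a paralog known from the testis, covered 6.80 to 7.34 in ES1 to ES12 and 6.89 to 7.53 in ES13 to ES26. Its difference was -0.17 ± 0.08 (SE, adjusted p = 0.0906 in limma), and it passed when all probe sets entered the median (-0.27, adjusted p = 0.041) and without ES16 (-0.20, adjusted p = 0.0383). Pknox1, also called Prep1 and needed for embryonic survival in mice, covered 7.60 to 8.44 in ES1 to ES12 and 7.73 to 8.61 in ES13 to ES26, where ES25 and ES26 were the highest at 8.47 and 8.61. Its difference was -0.07 ± 0.10 (SE, adjusted p = 0.594 in limma).

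Pknox2 ran the other way from the Meis genes. ES1 to ES12 held 6.82 to 8.79 with a median of 7.63, and ES4 and ES9 were the highest at 8.79 and 8.69. ES13 and ES14 had 6.03 and 6.52, ES15 to ES20 had 6.41, 6.49, 6.98, 7.34, 7.30 and 7.34, ES21 to ES24 had 5.34, 5.69, 5.73 and 6.04, and ES25 and ES26 had 5.60 and 5.49. By median ES25 to ES26 and ES21 to ES24 stood lowest, followed by ES13 to ES14, ES15 to ES20 and ES1 to ES12, and every pair of neighbours in that order overlapped. Pknox2 averaged 7.50 ± 0.79 in the 129S2/SvPas arrays and 6.31 ± 0.77 in the C57BL/6 arrays (SD, n = 14 and 12). It was higher under the 129S2/SvPas label by 1.18 ± 0.29 (SE, adjusted p = 0.00174 in limma).

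Which arrays carried these strain differences was examined by leaving out runs. Without ES13 and ES14 the same 5 genes were called, with Meis2 at -4.20, Meis1 at -3.02, Pbx3 at -1.82, Meis3 at -1.43 and Pknox2 at 1.39, where 25.3% of all genes were called higher and 25.2% lower. Without ES1 to ES12, which leaves 2 arrays with the 129S2/SvPas label, none of the 8 genes was called by limma, and 2 had an unadjusted p under 0.05. There 0.00546% of all genes were called higher and 0% lower, while 1814 of 18329 genes had an unadjusted p under 0.05. Meis1 and Meis2 were still at -2.43 and -1.79 (limma adjusted p = 0.299 and 0.306). Meis3, Pbx3 and Pknox2 came to 0.16 ± 0.33, 0.41 ± 0.49 and -0.036 ± 0.52 (SE), a change of sign that stayed within 1 SE of 0. The differences of Meis3, Pbx3 and Pknox2 between strain labels thus rested on ES1 to ES12.

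**Figure D2:**
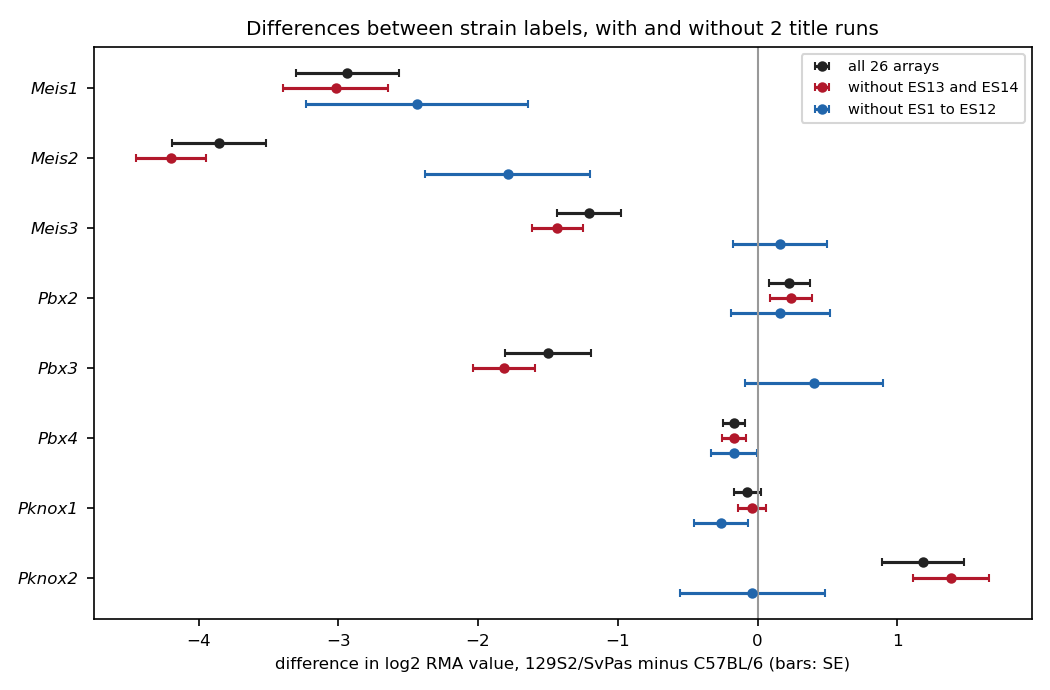
Difference in log2 RMA value between strain labels, 129S2/SvPas minus C57BL/6 (horizontal axis), for each of the 8 genes; points are limma estimates, bars their SE, and colours stand for all 26 arrays, all but ES13 and ES14, and all but ES1 to ES12. Leaving out ES1 to ES12 brings Meis3 to 0.16, Pbx3 to 0.41 and Pknox2 to -0.036, while Meis1 stays at -2.43.

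Run by run, the number of genes with separate ranges was set beside the share over all genes. In ES1 to ES12 against ES13 to ES26, Meis2 and Meis3 lay below with no overlap, beside 6.41% of all genes, and 0 of the 8 lay above, beside 7.77%. In ES13 and ES14 against ES21 to ES24, where the score of primitive streak markers was 7.86 to 9.33 against 6.96 to 7.48, Meis3, Pbx2 and Pbx3 lay above (11.4% of all genes) and Pknox1 below (20.3%). In ES15 to ES20 against ES21 to ES24, Meis3, Pbx2, Pbx3 and Pknox2 lay above, beside 11.8% of all genes, and 0 below, beside 12.7%. In ES25 and ES26 against ES21 to ES24, Meis1, Meis2, Meis3, Pbx3 and Pknox1 lay above, beside 18% of all genes, and 0 below, beside 16.1%. In ES15 to ES20 against ES25 and ES26, Meis3, Pbx2, Pbx3 and Pknox2 lay above (16.9% of all genes) and Pknox1 below (19%). The 3 comparisons with ES21 to ES24 share those 4 arrays. The count for Pknox1 in ES13 and ES14 was 0 with arrays centred.

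The runs in which Meis1 and Meis2 stood high were also those with high scores of fibroblast markers. That score was 6.21 to 6.96 in ES1 to ES12, 8.05 to 8.28 in ES13 and ES14, 8.69 to 10.30 in ES15 to ES20, 7.71 to 8.84 in ES21 to ES24 and 9.49 to 9.96 in ES25 and ES26. Of its 8 genes 7 were lower and 1 higher under the 129S2/SvPas label. ES15 to ES20 also had the highest embryonic erythroid score, 9.67 to 11.94, and the highest endothelial score, 8.82 to 9.66, whereas in ES25 and ES26 these were 5.20 to 5.67 and 5.29 to 5.54. The megakaryocyte score reached its highest values there too, at 7.63 to 10.42 in ES15 to ES20, 6.92 to 8.63 in ES1 to ES12 and 5.88 to 6.61 in the other runs. The score of blood stem and progenitor markers ran otherwise, at 8.41 to 9.04 in ES1 to ES12, where Meis1 had its lowest median, 7.94 to 8.56 in ES15 to ES20 and 7.06 to 8.23 in the other runs. Of the 10 genes of this list, 4 were called higher under the 129S2/SvPas label, beside 21.2% of all genes, and 1 lower, beside 22.1%. The neural score was 7.98 to 8.23 in ES21 to ES26, 7.12 to 7.63 in ES13 to ES20 and 5.68 to 6.09 in ES1 to ES12. In ES25 and ES26 Meis2 was at 9.87 and 9.98, and the embryonic erythroid and endothelial scores did not exceed 5.67. The part of these cell types in the Meis levels was not tested.

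Within runs the arrays also moved together for several of the genes. ES15 was the lowest of ES15 to ES20 for Meis1, Meis2, Pbx3 and Pknox2, and it also had the lowest median gene value of that run, 7.31 against 7.39 to 7.47. Among ES21 to ES24, ES22 was the highest for 6 of the 8 genes and ES24 the lowest for 5, namely Meis1, Meis2, Meis3, Pbx2 and Pbx3. ES24 also had the lowest median gene value of those 4 arrays, 7.18 against 7.36 to 7.42, and ES22 had the highest. Meis1 was at 6.80 in ES24 against 7.53 to 8.68. How often ES15, ES22 and ES24 were lowest or highest over all genes was not counted. The part of the array's own level in these orders was not tested. ES24 was instead the highest of the 4 for Pknox2, at 6.04.

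The genes whose centred profile over the 26 arrays was most like that of each wide-ranging member were found by the root mean square difference in log2 units. A range of at least 2 units qualified Meis1 (5.61), Meis2 (5.46), Pknox2 (3.45), Pbx3 (3.12) and Meis3 (2.63), as it did 32.5% of all genes. For Meis1 they were Rbms3 (0.57), Dnm3os, Adam12, Kif26b and Col3a1 (0.70), and for Meis2 Fkbp14 (0.39), Nbea, Fbn1, Col1a2 and Scrn1 (0.49). Col3a1 and Col1a2 encode fibrillar collagen chains and belong to the fibroblast marker list, Fbn1 encodes fibrillin and Adam12 a metalloproteinase. The cardiac and endodermal factor Gata4 was the gene most like Pbx3 (0.31), ahead of Zfp521, Cyp2j6, Ttc3 and Rtl8c (0.36), and Ttc3 (0.31) was also the most like Meis3, ahead of Limch1, Galnt10, Evl and Prdx2 (0.35). For Pknox2 they were Eepd1 (0.43), Sh2d3c, Akap13, Stim1 and Kctd12 (0.45). When the gene value was a mean of all probe sets, only 6 of these 25 places kept their gene, while centring the arrays kept 25. Among the members themselves Pbx4 and Pknox1 were the closest pair at 0.27, and of the wide-ranging ones Meis3 and Pbx3 at 0.41 were closer than Meis1 and Meis2 at 0.87. This measure is not scaled by range, so genes of narrow range lie close whatever their pattern. Pbx4 and Pknox1 had the narrowest ranges, 0.74 and 1.02, and Meis3 and Pbx3 had narrower ones than Meis1 and Meis2.

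Single probe sets showed how evenly these differences ran along the genes. Of the probe sets of each gene, limma called 20 of 22 lower for Meis1, 26 of 28 for Meis2, 5 of 6 for Meis3 and 17 of 22 for Pbx3, and 21 of 28 higher for Pknox2. Over all 299088 probe sets 18.3% were called higher and 21% lower. Pbx2 had 3 of 13 higher, Pknox1 1 of 14 higher and Pbx4 2 of 12 lower. By range, 20 of the 28 Meis2 probe sets and 3 of the 6 of Meis3 lay lower in ES1 to ES12 than in every other array, beside 5.25% of all probe sets, and none of the 145 lay above, beside 6.06%.

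**Figure D3:**
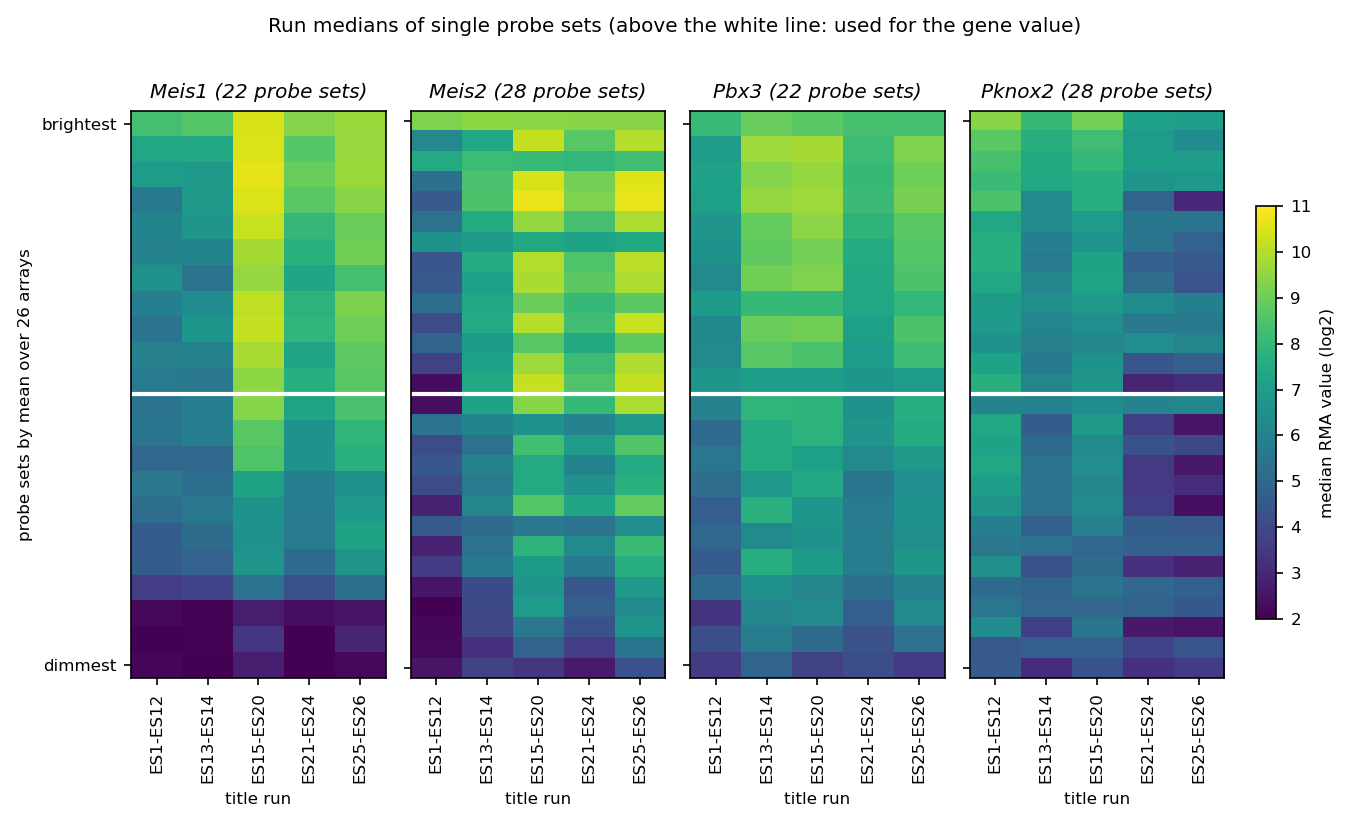
Median log2 RMA value (colour) of each probe set of Meis1, Meis2, Pbx3 and Pknox2 (rows, brightest mean at the top) in the 5 title runs (columns); probe sets above the white line form the gene value. Most rows follow their gene, while the top row of Meis2 stays at 9.26 to 9.48 in all 5 runs.

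Probe sets that depart from their gene were tested on the probe set value minus the gene value, with a minimum difference of 1 unit. After a filter on dim genes and probe sets, 49 of the 145 were tested, all of them of Meis1, Pbx2, Pbx3 and Pknox1. None passed in limma, beside 0.403% of all probe sets tested, and 1 had an unadjusted p under 0.05. That was Meis1 probe set 4771652, the brightest of its gene, with a relative difference of 1.50 ± 0.28 (SE, unadjusted p = 0.0396), which was called at a minimum difference of 0.5. On its own scale it had run medians of 8.36 in ES1 to ES12 and 10.46 in ES15 to ES20, a smaller step than that of the gene.

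Without the filter 11 of 145 were called, 9 in Meis2 and 2 in Meis1, beside 0.813% of all probe sets. In Meis2 the largest in the positive direction was probe set 5038096, at 3.78 relative to the gene. Its run medians were 9.26, 9.48, 9.42, 9.42 and 9.39 in title order, so that it was the brightest Meis2 probe set on average and did not follow the gene. The largest in the negative direction was probe set 4538477, at -2.50, whose run medians were 2.32 in ES1 to ES12, 7.43 in ES13 and ES14, 10.19 in ES15 to ES20, 8.53 in ES21 to ES24 and 10.16 in ES25 and ES26. It was also the dimmest probe set inside the gene value, with a mean of 6.07 over the 26 arrays, next to 5.95 for the brightest one outside. For the other genes the dimmest inside and the brightest outside were 6.98 and 6.86 in Meis1, 6.41 and 5.59 in Meis3, 8.86 and 8.85 in Pbx2, 6.83 and 6.76 in Pbx3, 6.40 and 6.28 in Pbx4, 7.81 and 7.47 in Pknox1, and 6.26 and 6.15 in Pknox2. Which exon each probe set reads is not given in the tables used here.

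The Hox partners and 4 other related lists were measured in the same fit, and their counts stand beside the 21.2% of all genes called higher and the 22.1% called lower. Of 21 Hox genes of paralog groups 1 to 8 tested, 6 (28.6%) were lower and 0 higher under the 129S2/SvPas label, a share of lower calls near that of all genes, with a median of -0.30. The largest were Hoxc5 at -1.20, Hoxc4 at -0.76, Hoxc6 at -0.75 and Hoxb2 at -0.53 (limma adjusted p = 0.00486, 0.000621, 0.0379 and 0.0103). Of 13 genes of groups 9 to 13, which act in the hind part of the body axis, 7 (53.8%) were lower and 1 (7.69%) higher, with a median of -0.70, led by Hoxd13 at -1.14, Hoxc9 at -0.91, Hoxa11 at -0.81 and Hoxd10 at -0.79 (limma adjusted p = 0.00193, 0.0432, 0.0117 and 0.0104). The count of 8 called genes in this list was 5 without ES3, without ES15 or without ES16, 10 without ES14, 5 with arrays centred and 4 when gene values were quantile normalized. In groups 1 to 8 it was 3 when quantile normalized and 12 without ES13 and ES14. These Hox genes were mostly dim. Without the dimmer 50% of genes, 0 of the 13 genes of groups 9 to 13 and 2 of the 21 of groups 1 to 8 were tested, and 0 were called. Hoxa11 lay at 5.16 to 6.25 in ES1 to ES12, 6.68 and 7.38 in ES13 and ES14, 7.34 to 7.61 in ES15 to ES20 and 5.52 to 6.34 in ES21 to ES26. Hoxc6 and Hoxc9 lost their call when any of 13 and 15 single arrays was left out.

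Hoxa9 and Hoxa10 are the partners of Meis1 in myeloid cells. Hoxa9 had a difference of 0.25 ± 0.40 (SE, adjusted p = 0.655 in limma), on means of 7.03 ± 1.26 in the 129S2/SvPas arrays and 6.78 ± 0.75 in the C57BL/6 arrays (SD, n = 14 and 12). Hoxa10 was lower at -0.70 ± 0.27 (SE, adjusted p = 0.0378 in limma), a call that ended when any of 11 single arrays was left out.

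Within ES1 to ES12 Hoxa9 was spread over 5.41 to 9.38. The 3 arrays lowest in Meis1, ES3 with 4.72, ES11 with 4.87 and ES10 with 5.17, were also the 3 lowest in Hoxa9, with 5.55, 5.48 and 5.41. ES5 was the highest in both, with 6.95 for Meis1 and 9.38 for Hoxa9. In between the order of the arrays differed. ES8 ranked 11 of 12 from low to high in Meis1 and 6 in Hoxa9, ES2 ranked 5 and 9, and ES7 ranked 8 and 11. This pattern was noticed after the values were seen and is given as a description. Hoxa10 lay at 5.19 to 6.67 in the same arrays, with ES4 lowest.

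Among the other TALE homeobox genes 5 of 9 (55.6%) were lower and 0 higher under the 129S2/SvPas label, with a median of -0.50. With quantile normalized gene values 3 were called. They were led by Tgif2, a repressor of TGF-beta signalling, at -1.73, followed by Irx5 at -0.83, Mkx at -0.62 and Irx3 at -0.57 (limma adjusted p = 2.62e-05, 0.000188, 0.000682 and 0.00549). Tgif2 lay at 6.18 to 7.75 in ES1 to ES12 and at 8.58 to 9.50 in the other arrays, with no overlap.

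Of 13 retinoic acid responsive genes 5 (38.5%) were lower and 2 (15.4%) higher, with a median of -0.14. Crabp2, which carries retinoic acid to its receptor, was lower at -3.25, the nuclear receptor Nr2f1 at -2.03 and the receptor Rarb at -1.85, while the transglutaminase Tgm2 was higher at 2.01 (limma adjusted p = 1.2e-07, 2.31e-07, 0.00448 and 0.00949). Their run patterns differed. Rarb lay at 6.60 to 10.29 in ES15 to ES20, where Meis1 was highest, and at 4.79 to 5.63 in every other run. Crabp2 stood highest in ES25 and ES26, at 10.24 and 10.63, where Meis2 had its highest median. Tgm2 was highest in ES1 to ES12, at 7.06 to 12.14.

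Of 14 genes known from Hoxa9 and Meis1 in blood progenitors 4 were higher and 4 lower (28.6% each way, near the shares of all genes), with a median of 0.26. Myb, a factor of immature blood cells, was higher by 3.65, Lmo2 by 2.73 and Erg by 2.45, whereas Mecom was lower at -2.29 (limma adjusted p = 3.82e-08, 0.000177, 0.000101 and 3.83e-08). Myb lay at 9.60 to 11.19 in ES1 to ES12, where Meis1 had its lowest median. Of 12 other genes whose products meet Meis or Pbx proteins, 6 (50%) were lower and 1 (8.33%) higher with a median of -0.37: Gata4 at -1.32, Tbx5 at -0.94 and Hand2 at -0.82, all factors of heart development, were lower, and Pbxip1, which binds Pbx proteins, was higher at 0.83 (limma adjusted p = 0.0008, 0.00212, 0.00416 and 0.00606). Tbx5 also stands in the cardiac marker list.

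**Figure D4:**
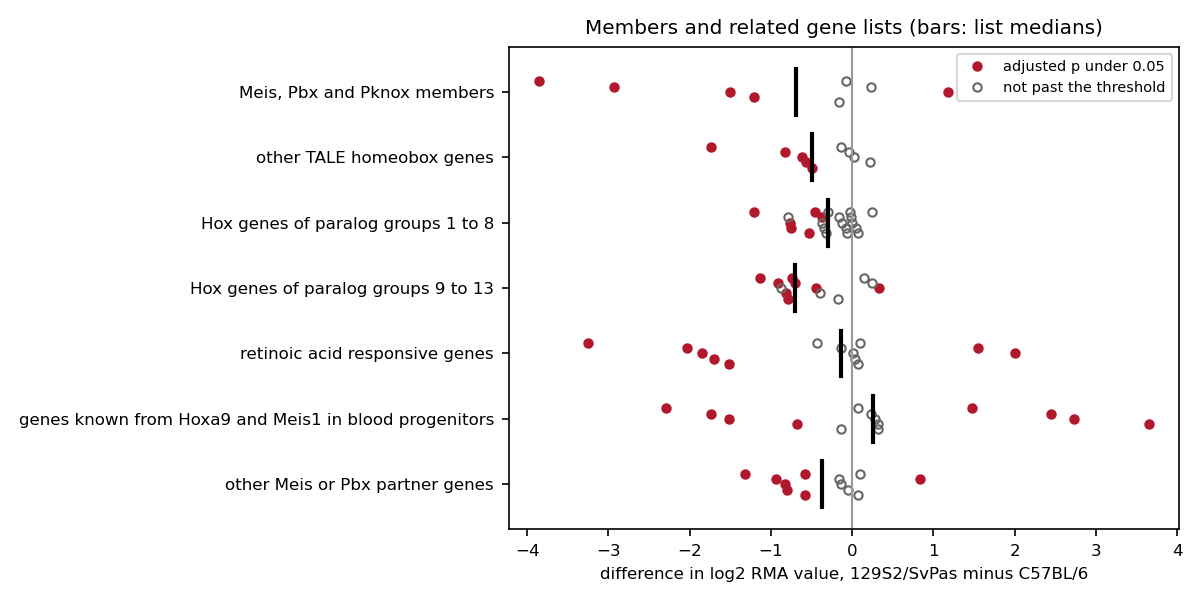
Difference in log2 RMA value between strain labels, 129S2/SvPas minus C57BL/6 (horizontal axis), for the 8 Meis, Pbx and Pknox genes and 6 related lists (rows); filled points passed an adjusted p of 0.05 in limma, open points did not, and vertical bars are list medians. The members' median is -0.69, and Meis2 and Meis1 are its 2 lowest points.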

How the data were processed

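RNA of 26 samples was measured on the Affymetrix Mouse Exon 1.0 ST array after 2-round amplification, per the labels' protocols. Per the labels, the authors made RMA values for extended probe sets with Affymetrix Expression Console. Background correction and normalization across arrays are part of RMA. The deposited values, 1 per probe set and array, were read as log2 values. The log base, 2, is inferred from the usual RMA output and from values between 0.831 and 15.6. Arrays give no read depth, the files hold no background call, so precision depends on how many arrays there are. Array medians were 5.32 to 5.51, and 0 pairs of arrays were identical.

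The platform annotation gave 1 symbol for 306069 of 631748 probe sets. Another 6067 had several symbols and 319612 had none. RefSeq (GRCm38.p6) holds 17747 of the 21757 symbols as current names; 3805 were updated by a synonym and 205 kept. Gene positions are those of RefSeq.

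Gene values are the median over the brighter 50% of a gene's probe sets by mean level, for the 18329 genes with at least 4 probe sets. Strain labels (129S2/SvPas minus C57BL/6) were compared with limma 3.58.1 in R 4.3.3 (lmFit, eBayes with a trend, two-sided, Benjamini-Hochberg over all genes, threshold 0.05). Probe sets relative to their gene were tested with a minimum difference of 1. The fits were tested on simulated data. Title runs are not in the labels and were described without tests. Members, runs and lists were chosen with earlier results of these data known. All 8 members are named, and of each list up to 4 genes past the threshold with the largest difference, plus Hoxa9 and Hoxa10. Alternatives were the gene summary, scaling, trend, array weights, an exact rank sum test, filters on dim genes and on probe sets, a threshold of 0.01, each array left out, and ES13 to ES14 or ES1 to ES12 left out.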

Additional observations from a re-analysis of the deposited data

How the results depend on the processing

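The 5 calls among the Meis, Pbx and Pknox genes kept their direction, where tested, in every alternative that included ES1 to ES12, and 5 or 6 genes were called when any single array was left out. Without the dimmer 50% of genes 4 of the 8 were tested and 2 were called. Without ES1 to ES12, 0 were called by limma (2 at an unadjusted p under 0.05): Meis1 was at -2.43 and Meis2 at -1.79, and Meis3 (0.16), Pbx3 (0.41) and Pknox2 (-0.036) changed sign within 1 SE of 0. In that setting Gata4 (0.86), Hoxa10 (0.11), Hoxa11 (0.31), Hoxb2 (0.25), Hoxc6 (0.39), Hoxc9 (0.70), Hoxd13 (0.13), Pbxip1 (-0.57), Tgif2 (0.32) and Tgm2 (-1.06) changed sign as well. None of these list genes passed the threshold there, and the setting leaves 2 arrays with the 129S2/SvPas label. Pbx2 passed with arrays centred (0.36), and Pbx4 with the median over all probe sets (-0.27) and without ES16, its range with single arrays left out being -0.20 to -0.14. Of the list genes 41 were called, 37 to 46 with single arrays left out, 27 with at least 8 probe sets, 14 without the dimmer 50% and 0 without ES1 to ES12, the first 2 of these filters testing fewer genes. Centring each array moved the median difference of all genes by 0.13 and the calls to 5725 higher and 2955 lower, against 3878 and 4053; the 4 lower members and Pknox2 kept their calls. Of probe sets relative to their gene 0 were called, against 1 at a minimum difference of 0.5 and 11 without the filter on dim probe sets. Of the 25 most alike genes 6 were kept when the gene value was a mean of all probe sets; the cause was not tested. Low array values compress differences, so those of dim genes may be understated. No paired analysis was possible because the strain labels share no replicate numbers in their titles.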
